A study of Chlorella sorokiniana and Chromochloris zofingiensis with 12 samples.

Results

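The common response of 2 green algae to strong light with glucose was examined over 12 small RNA libraries, with the alga as a covariate. Stress cultures of C. sorokiniana (Chlorella, strain NIES-2168) and of C. zofingiensis (Chlorella, strain ATCC30412) had been moved in mid log phase to light of 100 µmol photons with 2% glucose. Normal cultures of the same strains stayed at 10 µmol photons with no glucose named for them, and all cultures shared Bold's Basal Medium, 27 °C and shaking at 30 rpm. Light and sugar were changed together, so their effects cannot be told apart. Each of the 4 groups had 3 libraries, and nothing says that these came from separate cultures, so p-values measure the spread between libraries, which may be technical. Members were of 2 kinds. Tags are read sequences counted as such, and 39 of the 292 listed tags occurred with the same sequence in both algae. Annotated entries are Arabidopsis thaliana RNAs to which reads were matched, and 532 of 893 entries were found in both algae, which left 226 once entries with identical counts in all libraries were entered once.

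Each library lists its 100 commonest tags, which held 46518 to 500007 reads, so a tag at 0 is unlisted and not necessarily absent. Annotated counts ran between 2718 and 280404 per library, summed over entries that can share reads, and the lowest listed entry count was 2. The deepest annotation sheet, stress replicate 2 of C. zofingiensis, stood apart, with 17914 of its counts on the single entry snoR71 of chromosome 5 (11982171 to 11982277), beside 1451 and 43 in the other stress libraries and 0, 121 and 33 in the normal libraries of that alga. Fewer cells of a kind and less RNA per cell cannot be told apart in such bulk libraries.

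Small RNA libraries of algae and plants hold microRNAs, which guide Argonaute proteins to matching transcripts, and also many pieces of longer structural RNAs. Ribosomal RNA is cut out of a long precursor that carries the RNAs of both ribosomal subunits in a row. Transfer RNAs carry amino acids to the ribosome, and box C/D small nucleolar RNAs (snoRNAs) guide methyl groups onto ribosomal RNA. Pieces of all of these are known from stressed cells of many eukaryotes.

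The 39 shared tags fell into 7 families, where tags that had 12 bases in common, last base removed, were joined. The tags on which the results turn are printed here 5′ to 3′ as DNA letters. Capitals mark the longest run that all tags of a family hold.
Family 1, 16 bases: TGCCTCAGCGTCGGta
Family 1, 17 bases ending GGTA: cTGCCTCAGCGTCGGta
Family 1, 18 bases: tcTGCCTCAGCGTCGGta
Family 1, 19 bases ending GGTA: gtcTGCCTCAGCGTCGGta
Family 1, 20 bases ending GGTA: tgtcTGCCTCAGCGTCGGta
Family 1, 21 bases: atgtcTGCCTCAGCGTCGGta
Family 1, 22 bases ending GGTA: catgtcTGCCTCAGCGTCGGta
Family 2, 17 bases: TCGACCTGAGCTCAGga
Family 2, 18 bases ending GGCA: TCGACCTGAGCTCAGgca
Family 2, 19 bases: TCGACCTGAGCTCAGgcaa
Family 2, 21 bases: TCGACCTGAGCTCAGgcaaga
Family 3, 19 bases: aACTCTCAACAACGGataa
Family 3, 22 bases: aACTCTCAACAACGGatatcta
Family 4, 17 bases: ACCTGGTTGATCCTGca
Family 4, 18 bases: ACCTGGTTGATCCTGcca
Family 5, 16 bases: GCGGAAGGATCATTGa
Family 5, 17 bases: tGCGGAAGGATCATTGa
Family 5, 18 bases: ctGCGGAAGGATCATTGa

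Families 3 to 5 overlapped universal primers for ribosomal RNA genes. Family 5 matched the primer for the end of the small-subunit 18S rRNA over 14 bases with 0 differences, and family 4 matched the primer for the start of 18S rRNA over 13 bases with 0 differences. Family 3 matched a primer for the start of 5.8S rRNA, a part of the large subunit, over 21 bases with 2 differences. Families 1 and 2, the largest, matched none of these primers, and their RNA of origin was not identified. Of the 39 shared tags 0 held GAGAGTAGG on either strand, a stretch near the end of bacterial 5S rRNA, as did 0 of all 292 listed tags. All 39 shared tags ended in A, as did 292 of 292 listed tags, so the last base was not read as part of an RNA.

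Family 5 rose in both algae. It took 2.94%, 3.25% and 3.19% of listed reads in the stress libraries of C. sorokiniana, against 0.387%, 0.284% and 0.434% in its normal libraries. In C. zofingiensis it took 1.89%, 2.23% and 2.38% in stress libraries, against 0.295%, 0.339% and 0.321% in normal libraries. Every stress library of an alga lay above all its normal ones. The difference averaged over both algae was 2.30 percentage points (exact permutation test within species, two-sided, p = 0.005, the smallest that its 400 arrangements allow, and adjusted p = 0.0175 over 7 families). The families were formed after the tags had been seen.

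The 16-base tag of family 5 carried this rise without help from listing, since it was listed in all 12 libraries. It had 2386, 2650 and 1869 reads in stress libraries of C. sorokiniana, or 1.25%, 1.67% and 1.43% of listed reads, against 1040, 463 and 142 reads, or 0.256%, 0.284% and 0.305%, in normal ones. In C. zofingiensis it took 0.836%, 1.07% and 0.982% in stress and 0.295%, 0.339% and 0.321% in normal libraries. Its average log2 fold change was 1.56 ± 0.20 (SE), with 1.75 in C. sorokiniana and 1.36 in C. zofingiensis (edgeR, BH-adjusted p = 9.73e-05 for the average, where BH stands for Benjamini-Hochberg adjustment over all 38 tags tested). Its forms longer by 1 and by 2 bases at the 5′ end were listed mostly under stress. The 18-base form was listed in all 6 stress libraries and in 0 of the 6 normal ones, and its share was at least 5.11-fold higher in C. sorokiniana and at least 2.94-fold higher in C. zofingiensis. These bounds are set against the smallest listed share. The 17-base form was listed in all 6 stress libraries and in 2 normal libraries of C. sorokiniana, was at least 5.28-fold higher in C. zofingiensis, and did not pass for the average (edgeR, BH-adjusted p = 0.0713).

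Family 2, whose tags share their start and differ in their 3′ end, fell in both algae. It held 16.6%, 12.9% and 12.7% of listed reads in stress libraries of C. sorokiniana, against 21.1%, 18.3% and 17.98% in normal ones. In C. zofingiensis, where it was rarer, it held 1.82%, 2.49% and 2.35% in stress and 5.66%, 5.53% and 4.30% in normal libraries. The groups did not overlap in either alga, and the mean difference was -3.996 percentage points (exact permutation test, two-sided, p = 0.005, adjusted p = 0.0175 over 7 families).

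Single tags of family 2 gave the same direction. The 19-base tag took 5.89%, 4.23% and 3.86% of listed reads in stress against 8.17%, 6.95% and 6.18% in normal libraries of C. sorokiniana, and 0.628%, 0.760% and 0.843% in stress against 1.78%, 1.87% and 1.33% in normal libraries of C. zofingiensis. It fell by 1.29 ± 0.12 (SE) on the log2 scale on average (edgeR, BH-adjusted p = 1.19e-05). The 18-base tag ending GGCA fell by 1.17 ± 0.11 with the same adjusted p. Without stress replicate 1 or normal replicate 3 of C. zofingiensis the 2 values were -0.704 or -0.842 and -0.592 or -0.726, all still called. In C. sorokiniana the 18-base tag took 5.07% ± 0.75 of listed reads in stress and 7.03% ± 0.34 in normal libraries (SD, n = 3), beside a fitted -1.07. The fitted falls in that alga are larger than the falls in share, since the TMM scaling lowers its stress values. The call was weaker for the 17-base tag, which fell by 0.68 ± 0.22 (edgeR, BH-adjusted p = 0.0389), although its share of listed reads in C. sorokiniana was 1.02% ± 0.06 in stress and 1.02% ± 0.11 in normal libraries (SD, n = 3), so that its fitted -0.61 there rests on the TMM scaling. The 21-base tag was called lower in each alga, and in C. zofingiensis it was unlisted in every stress library, so that its share was at least 1.65-fold lower there, but its average effect did not pass (edgeR, BH-adjusted p = 0.135). The median log2 fold change over the 8 tags of family 2 was -1.23, beside -0.58 over all 38 shared tags tested.

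**Figure D1:**
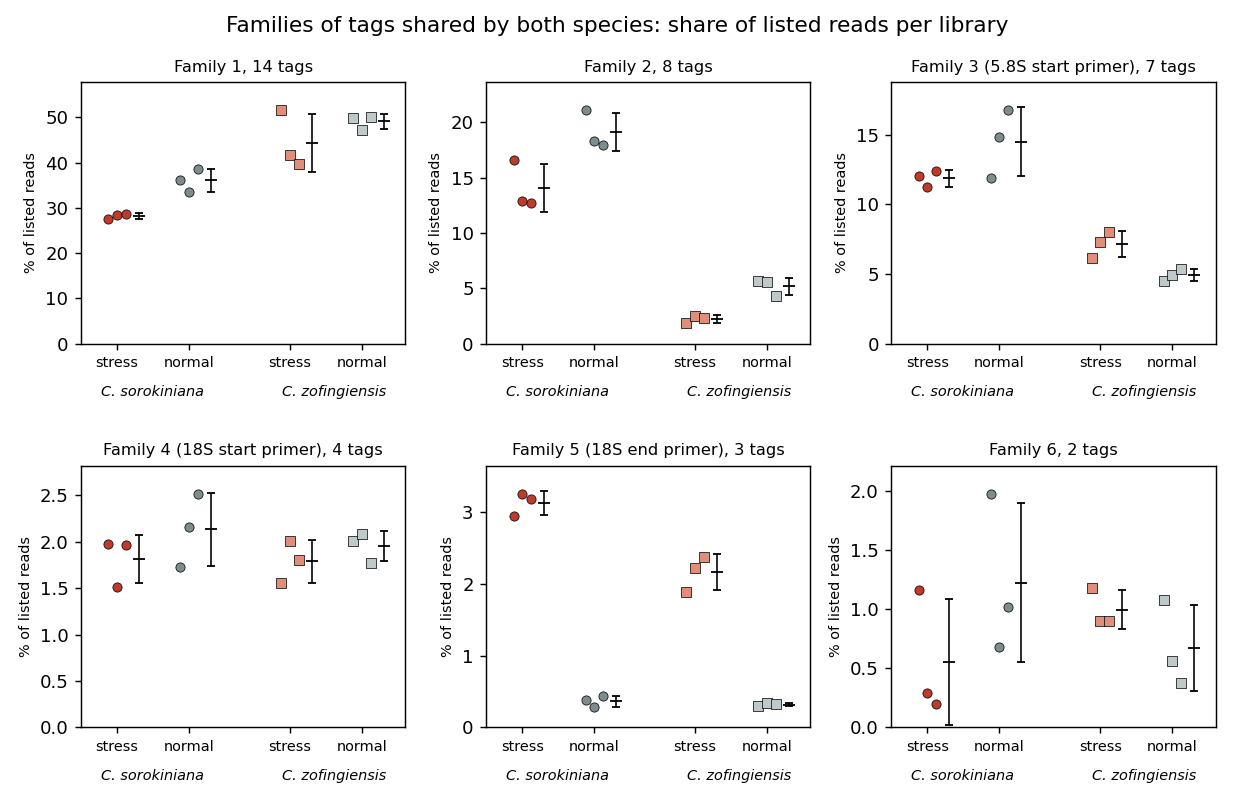
Share of listed reads held by each of 6 families of shared tags, per library, in percent, with stress left of normal for each alga. Circles are C. sorokiniana, squares are C. zofingiensis, and bars give the mean and SD of 3 libraries. Family 5 is higher and family 2 lower in every stress library of an alga than in its normal libraries, while the groups of families 4 and 6 overlap in both.

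Family 1, with 14 tags the largest by number and by reads, changed in its make-up. Its 7 tags ending GGTA are nested: each longer form adds bases at the 5′ end of the shorter one, and all 7 were listed in all 12 libraries, so their proportions need no scaling between libraries. The forms of 16 to 18 bases made up 20.4%, 25.7% and 25.3% of the nested reads in stress libraries of C. sorokiniana, against 11.7%, 11.4% and 10.0% in normal ones. In C. zofingiensis they made up 18.4%, 19.8% and 22.8% in stress and 9.05%, 10.3% and 10.9% in normal libraries. The lowest stress library thus lay well above the highest normal library in each alga. The mean difference was 11.5 percentage points (two-sided exact permutation test, p = 0.005, the smallest possible, adjusted p = 0.00556 over 10 measures of these forms). This grouping of lengths was chosen after the values were seen, and the 10 measures are parts of 1 composition.

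The change was not even over the lengths. The 16-base form averaged 7.85% ± 1.49 of the nested reads in stress and 2.10% ± 0.23 in normal libraries of C. sorokiniana (SD, n = 3), and 6.80% ± 1.08 in stress and 3.05% ± 0.39 in normal libraries of C. zofingiensis. The 20-base form, the commonest, averaged 36.1% ± 2.19 in stress and 47.7% ± 1.13 in normal libraries of C. sorokiniana, and 39.6% ± 2.97 in stress and 50.1% ± 2.06 in normal libraries of C. zofingiensis. The 19-base form was lower and the 17-base and 18-base forms were higher in every stress library of an alga. The 21-base form went with the short ones, at 10.49% ± 0.25 in stress and 7.75% ± 0.81 in normal libraries of C. sorokiniana and at 5.84% ± 0.60 in stress and 3.36% ± 0.12 in normal libraries of C. zofingiensis. The 22-base form overlapped between groups in both algae, with a mean difference of -0.0518 percentage points (exact permutation test, two-sided, p = 0.905). The mean length of the nested forms was 19.24 ± 0.11 bases in stress and 19.62 ± 0.03 in normal libraries of C. sorokiniana (SD, n = 3), and 19.37 ± 0.06 in stress and 19.63 ± 0.03 in normal libraries of C. zofingiensis.

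**Figure D2:**
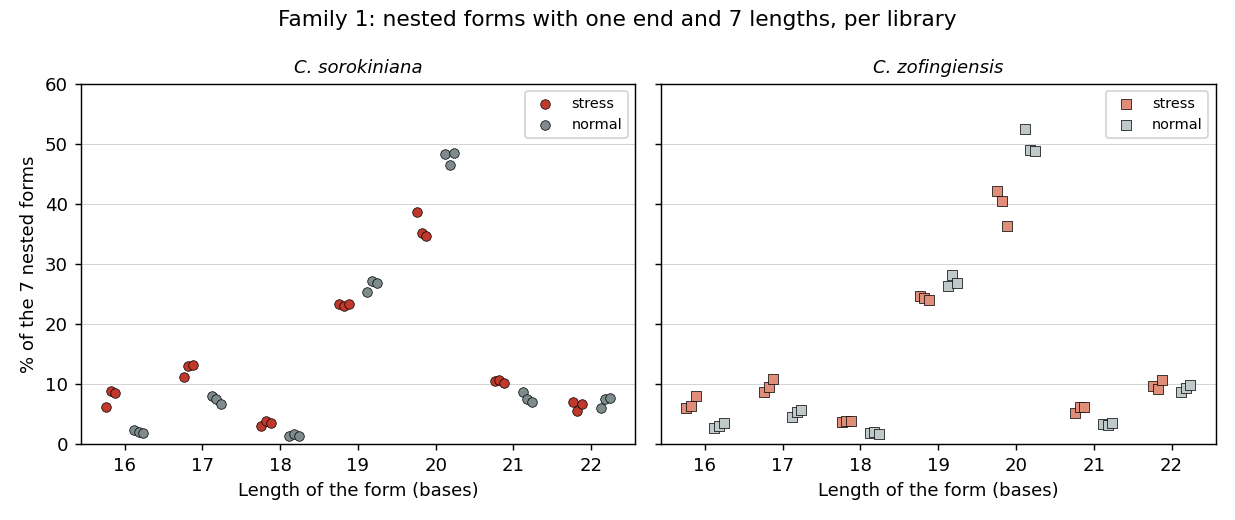
Share of each length among the 7 nested forms of family 1 with the end GGTA, per library, in percent, with stress to the left of normal at each length. Points are single libraries. The 16-base form lies at 6.005% to 8.83% in the 6 stress libraries and at 1.87% to 3.46% in the 6 normal ones, and the 20-base form lies lower under stress in both algae.

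As levels, the commonest forms of family 1 fell and the shortest rose. The 20-base form took 10.4%, 9.88% and 9.17% of listed reads in stress and 16.4%, 15.2% and 17.3% in normal libraries of C. sorokiniana, and 20.6%, 15.6% and 13.2% in stress and 25.2%, 22.1% and 22.3% in normal libraries of C. zofingiensis. It fell by 1.01 ± 0.18 (SE) on the log2 scale on average, and the 19-base form ending GGTA fell by 0.82 ± 0.16 (edgeR, BH-adjusted p = 0.000934 and 0.0021). The 16-base form rose by 0.88 ± 0.13 (edgeR, BH-adjusted p = 0.00025). Without stress replicate 1 or normal replicate 3 of C. zofingiensis, the 20-base form was at -0.615 or -0.567, the 19-base form at -0.401 or -0.366 and the 16-base form at 1.40 or 1.42, all still called. The 22-base form ending GGTA fell by 0.68 ± 0.20 (edgeR, BH-adjusted p = 0.0261), a call lost with library totals alone (-0.28, edgeR, BH-adjusted p = 0.0899) and when 1 library was left out in 7 of 12 cases. As a whole the family held 28.2% ± 0.59 of listed reads in stress and 36.07% ± 2.498 in normal libraries of C. sorokiniana, and 44.3% ± 6.36 in stress and 49.1% ± 1.57 in normal libraries of C. zofingiensis (SD, n = 3), a mean difference of -6.34 percentage points (exact permutation test, two-sided, p = 0.02, adjusted p = 0.0467 over 7 families), with overlap in the second alga.

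Short forms also gained share in families 2 and 4, where the tags differ at the 3′ end. In family 4, with the start of 18S rRNA, 2 tags were listed everywhere. The 17-base tag made up 23.9%, 27.4% and 28.8% of that pair in stress and 15.1%, 16.4% and 18.3% in normal libraries of C. sorokiniana, and 21.3%, 22.8% and 25.97% in stress and 10.1%, 13.1% and 14.1% in normal libraries of C. zofingiensis. The groups did not overlap, and the difference was 10.53 percentage points (exact permutation test, two-sided, p = 0.005, adjusted p = 0.01 over 18 shares in families 1 to 4). In family 2 the 17-base tag made up 9.61% ± 1.52 of the 3 tags listed everywhere in stress and 6.83% ± 1.23 in normal libraries of C. sorokiniana, and 15.25% ± 1.78 in stress and 10.8% ± 0.31 in normal libraries of C. zofingiensis, again without overlap (SD, n = 3; exact permutation test, two-sided, p = 0.005, adjusted p = 0.01). In family 3 none of the 5 tags listed everywhere changed its share of the family for both algae together, with adjusted p between 0.303 and 0.953 (exact permutation tests, two-sided). Family 5 went the other way in C. sorokiniana, where its 16-base and 17-base tags were both listed. Under stress the 17-base tag had 2236, 1682 and 1551 reads, beside 2386, 2650 and 1869 of the 16-base tag. In normal replicates 1 and 3 it had 532 and 60, beside 1040 and 142. The 17-base tag was unlisted in the other normal libraries of both algae, and shares within family 5 were not tested.

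**Figure D3:**
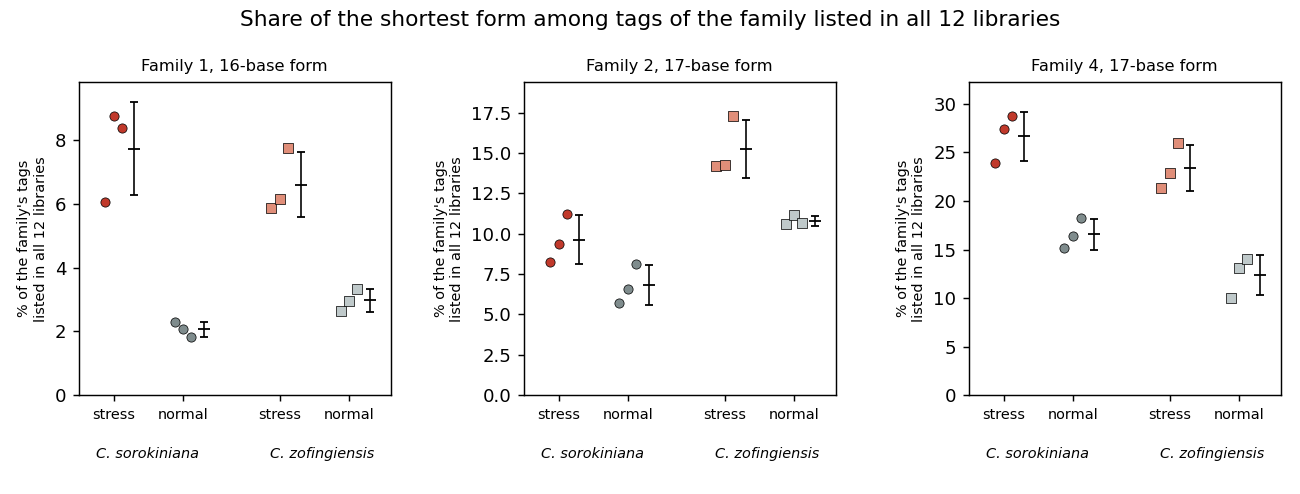
Share of the shortest tag listed in all 12 libraries among all such tags of its family, per library, in percent, for families 1, 2 and 4, with stress left of normal. Circles are C. sorokiniana, squares are C. zofingiensis, and bars give the mean and SD of 3 libraries. In each family and alga the 3 stress libraries lie above the 3 normal ones.

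Over all shared tags, those of 16 to 18 bases held 41.5% ± 2.31 of shared-tag reads in stress and 31.0% ± 2.65 in normal libraries of C. sorokiniana, and 28.45% ± 2.74 in stress and 18.35% ± 1.01 in normal libraries of C. zofingiensis (SD, n = 3). Tags of 19 to 21 bases were lower in every stress library of an alga, with a mean difference of -10.4 percentage points. Both differences had p = 0.005 (exact permutation test, two-sided, adjusted p = 0.0075 over 3 length classes), and tags of 22 or more bases differed by 0.0659 percentage points (p = 0.875, exact permutation test). All 3 tags of family 5 have 16 to 18 bases, so the rise of that family, by 2.30 percentage points of listed reads, is part of the first difference. The length classes therefore mix changes of level between families with changes of length within them.

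Families 3, 4, 6 and 7 did not share a change of level. Family 4 held 1.82% ± 0.26 of listed reads in stress and 2.135% ± 0.392 in normal libraries of C. sorokiniana, and 1.79% ± 0.23 in stress and 1.96% ± 0.16 in normal libraries of C. zofingiensis (SD, n = 3; exact permutation test, two-sided, p = 0.155), although its 18-base tag fell by 0.96 ± 0.11 (SE) on the log2 scale (edgeR, BH-adjusted p = 7.3e-05) and was at -0.422 or -0.487 without stress replicate 1 or normal replicate 3 of C. zofingiensis. Family 3, with the start of 5.8S rRNA, held 11.9% ± 0.59 in stress and 14.5% ± 2.46 in normal libraries of C. sorokiniana, against 7.15% ± 0.94 in stress and 4.93% ± 0.42 in normal libraries of C. zofingiensis, so the direction was not shared (exact permutation test, two-sided, p = 0.86). Its 19-base tag was at -1.04 in C. sorokiniana and 0.38 in C. zofingiensis on the log2 scale, and the difference between the algae passed (interaction term in edgeR, BH-adjusted p = 0.0009). That difference had an adjusted p of 0.39 with DESeq2, of 0.659 over the 20 tags listed in all libraries and of 0.0699 without normal replicate 3 of C. zofingiensis (edgeR, Benjamini-Hochberg, for both of these). The 2 tags of family 6 were not called for the average effect. In C. sorokiniana its 19-base tag was called lower (-1.72, edgeR, BH-adjusted p = 0.0392), while it was at 0.36 in C. zofingiensis. Its shares overlapped between the groups in both algae, and the difference between the algae did not pass (interaction term in edgeR, BH-adjusted p = 0.123). The single tag of family 7, listed in 2 normal libraries alone, was not tested.

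**Figure D4:**
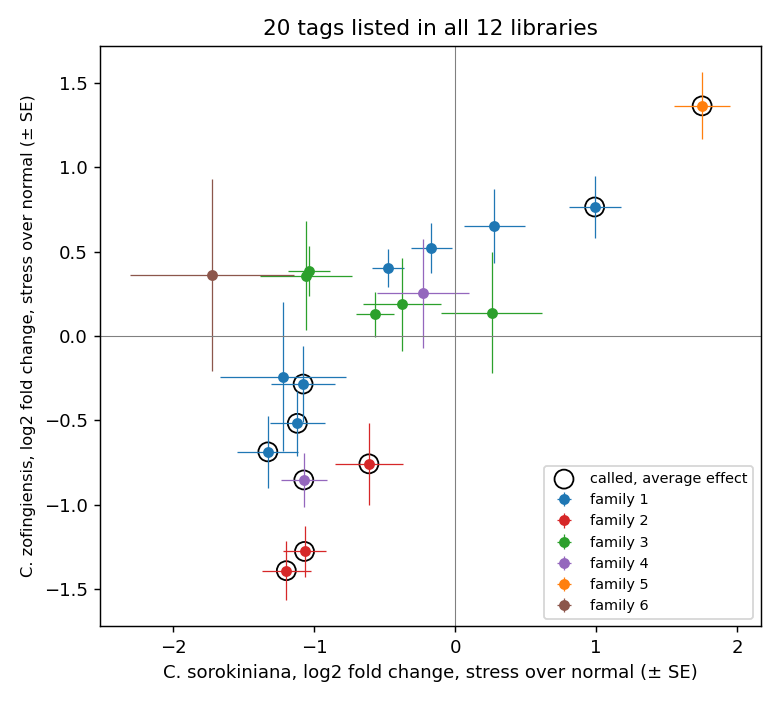
Log2 fold change of stress over normal with its SE in C. sorokiniana (horizontal) and in C. zofingiensis (vertical) for the 20 tags listed in all 12 libraries, coloured by family. Rings mark tags called for the average effect. The tags of family 2 lie at the lower left and the tag of family 5 at the upper right, while tags of family 3 lie left of 0 and above 0 in 4 of 5 cases.

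In all, 38 of the 39 shared tags were tested. Of these 3 were called higher (7.89%) and 7 lower (18.4%) for the average effect at an adjusted p below 0.05 (edgeR, Benjamini-Hochberg). With library totals alone in place of the TMM scaling, which corrects for composition, 7 were called higher and 5 lower, and the median over tested tags of the log2 fold change was -0.24, 0.35 above the -0.58 found with TMM. The sizes of changes of level, and the direction of those near 0, therefore depend on the scaling, while the proportions within families do not. In C. sorokiniana the TMM factors were 1.384, 1.439 and 1.25 in stress and 1.049, 0.8055 and 0.8631 in normal libraries. Fitted falls in that alga are therefore larger than falls in share. Family 4, 18 bases, took 1.19% ± 0.14 of listed reads there in stress and 1.645% ± 0.16 in normal libraries (SD, n = 3), beside a fitted -1.07. In each alga separately, 8 tags were called the same way (21.1%), and the values of stress and normal libraries did not overlap, in the same direction in both algae, for 13 tags (34.2%). The 2 algae's log2 fold changes had a Pearson correlation of 0.50 over the 38 tags, which share libraries and, within families, sequence. The response differed between the algae for 7 tags (18.4%, edgeR's interaction test, Benjamini-Hochberg). Together the shared tags took 59.6% ± 2.39 of listed reads in stress and 73.45% ± 3.71 in normal libraries of C. sorokiniana, and 58.6% ± 4.84 in stress and 62.2% ± 1.44 in normal libraries of C. zofingiensis (SD, n = 3; exact permutation test, two-sided, p = 0.02, adjusted p = 0.1 over 5 shares).

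The annotated entries held a weaker common response, and few of them had the same commonest read in both algae. Reads that differ only in their ends count as different here, so a different commonest read need not mean a different RNA. Reads were matched to Arabidopsis, and the commonest read of an entry was the same in both algae for 13 of 109 tested entries (11.9%), with a median of 6 bases in the longest run that the 2 commonest reads shared. Such reads had a median length of 15 bases over all shared entries and mapped to a median of 21 loci. An entry is therefore a set of similar short reads and not a gene of these algae. For the entries described next, the commonest read of each alga is printed 5′ to 3′, with the longest shared run in capitals.
SNORD14, C. sorokiniana: GGATGTCTGAGagcaa
SNORD14, C. zofingiensis: cttGGATGTCTGAGgcaa
SNORD27, C. sorokiniana: taATCTTCTCTCTGAGGCGAa
SNORD27, C. zofingiensis: ATCTTCTCTCTGAGGCGA
tRNA of chromosome 1, 2025356 to 2025428, C. sorokiniana: gggataTAGCTCAga
tRNA of chromosome 1, 2025356 to 2025428, C. zofingiensis: gggatgTAGCTCA
tRNA of chromosome 4, 13006234 to 13006306, C. sorokiniana: gttGGTAGAGCGCta
tRNA of chromosome 4, 13006234 to 13006306, C. zofingiensis: tcagtcGGTAGAGCGCca
snoZ159, both algae: CTGAGCTCAGGCAA

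Of 109 entries tested, 25 were called higher (22.9%) and 12 lower (11.0%) for the average effect (edgeR, Benjamini-Hochberg). These 37 entries held 21 distinct pairs of commonest reads, 12 among the higher and 9 among the lower ones, so many calls repeat each other. With library totals alone 2 were called higher and 8 lower, and 9 of these 10 were among the 37. The median log2 fold change over all entries was 0.33 with totals and 0.39 with TMM. The TMM factors for entries ran from 0.1319 in stress replicate 2 of C. zofingiensis to 2.347 in normal replicate 3 of C. sorokiniana. Close medians therefore do not mean that single libraries were scaled alike. The split also turned with single libraries of C. zofingiensis, to 1 higher and 11 lower without normal replicate 3, 2 higher and 12 lower without normal replicate 2, and 20 higher and 2 lower without stress replicate 3. As CPM, counts scaled to the library's total over shared entries, stress and normal values lay apart in the same direction in both algae for 8 entries (7.34%), all of them among the 37. After division by the TMM-scaled library sizes that the test uses, 7 entries lay apart, and the tRNA at chromosome 4, 13006234 to 13006306, was the 1 entry apart under both scalings. Only snoR1 and SNORD14 were called the same way in each alga (1.83%, edgeR, Benjamini-Hochberg).

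Among snoRNAs, 6 of 25 tested entries fell (24.0%, beside 11.0% over all entries) and 3 of 25 rose (beside 22.9%), with a median log2 fold change of -0.31 beside 0.39 over all entries. The 3 that rose were snoR109, snoR35 and the snoR71 entry of chromosome 5 (11982171 to 11982277). Most counts of that snoR71 entry were in stress replicate 2 of C. zofingiensis. In C. sorokiniana its commonest read was counted 10 times, which was 100% of its counts there. SNORD14, on chromosome 4 (18305255 to 18305377) of the Arabidopsis build TAIR9 and named after a box C/D snoRNA, had 23, 27 and 10 reads in stress against 84, 54 and 4 in normal libraries of C. sorokiniana, and 0, 2 and 2 in stress against 4, 9 and 19 in normal libraries of C. zofingiensis. As CPM all its stress values lay below all normal values of the same alga, while with TMM-scaled sizes the groups overlapped in C. sorokiniana. It fell by 2.37 ± 0.65 (SE) on the log2 scale (edgeR, BH-adjusted p = 0.0276). SNORD27, chromosome 4 (7683937 to 7684019), another box C/D name, had 0, 3 and 2 reads in stress against 5, 9 and 5 in normal libraries of C. sorokiniana, and 7, 11 and 0 in stress against 14, 32 and 13 in normal libraries of C. zofingiensis. It fell by 2.30 ± 0.71 (edgeR, BH-adjusted p = 0.0276), with adjusted p of 0.0526, 0.072 and 0.0591 without stress replicate 1 of C. sorokiniana, stress replicate 3 or normal replicate 2 of C. zofingiensis, and with TMM-scaled sizes its groups overlapped in C. zofingiensis. The commonest reads of the 2 algae had runs of 11 bases in common for SNORD14 and 18 for SNORD27. In the libraries where they were the commonest, these reads made up 8.42% of all SNORD14 counts in C. sorokiniana and 25.0% in C. zofingiensis. For SNORD27 they made up 79.2% and 31.2%. The likeness of the other reads between the algae was not examined.

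The entry snoR1, chromosome 3 (10328510 to 10328602), had 11, 9 and 5 reads in stress against 21, 21 and 9 in normal libraries of C. sorokiniana, and 39, 9 and 18 in stress against 61, 57 and 86 in normal libraries of C. zofingiensis, with overlap in CPM in C. zofingiensis and none in either alga with TMM-scaled sizes, and the commonest reads of the 2 algae shared a run of 4 bases. It fell by 2.00 ± 0.52 on the log2 scale (edgeR, BH-adjusted p = 0.0276). The entry snoZ159, chromosome 1 (8756367 to 8756453), fell by 1.81 ± 0.52 (edgeR, BH-adjusted p = 0.0276, and 0.0646 with library totals alone or 0.0544 without stress replicate 3 of C. zofingiensis), with 132, 80 and 46 reads in stress against 318, 114 and 20 in normal libraries of C. sorokiniana and 51, 37 and 31 in stress against 117, 165 and 145 in normal libraries of C. zofingiensis. Its commonest read is the same in both algae and lies whole within tags of family 2, which fell as well, so the 2 results are not independent. Among the entries filed with the snoRNAs, 9 carry the names of the spliceosomal RNAs U2, U4 and U6. Of these 0 were called for the average effect. In C. zofingiensis 1 of the 9 had an adjusted p below 0.05, beside 32 of all 109 entries. In C. sorokiniana 3 of the 9 did, beside 21 of 109 (edgeR, Benjamini-Hochberg). The 2 U3 entries found in both algae were not tested, for low counts.

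Among tRNAs, 18 of 71 tested entries rose (25.4%, beside 22.9% over all entries) and 5 fell (7.04%, beside 11.0%), and these rested on 6 and 2 distinct pairs of commonest reads. The clearest rise was at chromosome 4, 13006234 to 13006306, with 11, 10 and 7 reads in stress against 2, 0 and 0 in normal libraries of C. sorokiniana, and 191, 74 and 163 in stress against 0, 6 and 4 in normal libraries of C. zofingiensis. No stress value overlapped a normal value of the same alga, as CPM or with TMM-scaled sizes, and the average log2 fold change was 4.78 ± 0.82 (SE; edgeR, BH-adjusted p = 0.000278). Within the algae it was called in C. zofingiensis (5.43, adjusted p = 2.25e-09) and not in C. sorokiniana (2.60, adjusted p = 0.0833, edgeR, Benjamini-Hochberg). None of the 18 risen tRNA entries was called in both algae. The row at chromosome 1, 7016516 to 7016588, which has 3 near copies among them, had 18, 23 and 19 reads in stress against 8, 12 and 0 in normal libraries of C. sorokiniana, and 219, 76 and 166 in stress against 6, 12 and 14 in normal libraries of C. zofingiensis, with overlap in CPM in both algae and, with TMM-scaled sizes, in C. sorokiniana. Its average log2 fold change was 2.30 and its response differed between the algae, at 0.54 in C. sorokiniana and 3.82 in C. zofingiensis (interaction term in edgeR, BH-adjusted p = 0.0108). In C. zofingiensis its commonest read is also that of the chromosome 4 row above, so the 2 rows are not independent there.

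Of the 5 fallen tRNA entries 4 were nearly the same reads. The row at chromosome 1, 2025356 to 2025428, had 96, 169 and 118 reads in stress against 441, 316 and 30 in normal libraries of C. sorokiniana, and 411, 579 and 145 in stress against 418, 2570 and 1521 in normal libraries of C. zofingiensis. It fell by 1.91 ± 0.64 (edgeR, BH-adjusted p = 0.0313), and as CPM the groups did not overlap in either alga, while with TMM-scaled sizes they overlapped in both. Another 3 rows, at chromosome 1, 2334822 to 2334894, chromosome 2, 706796 to 706868, and chromosome 4, 13454557 to 13454629, differed from it by a few reads. The call ended without stress replicate 1 of C. sorokiniana (adjusted p = 0.0526) or stress replicate 3 of C. zofingiensis (adjusted p = 0.0544, edgeR, Benjamini-Hochberg). The most abundant tRNA row, chromosome 1, 20412928 to 20413000, with a mean of 8.92% of the counts of shared entries, did not pass, at -0.29 ± 0.76 (edgeR, BH-adjusted p = 0.798). Nor did its near copies at 2846536 to 2846608 and 9158183 to 9158255 of that chromosome, at -0.29 each, or the rows at chromosome 5, 26195459 to 26195531 (1.07), chromosome 1, 18387802 to 18387874 (1.07), and chromosome 5, 3324702 to 3324774 (2.23).

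**Figure D5:**
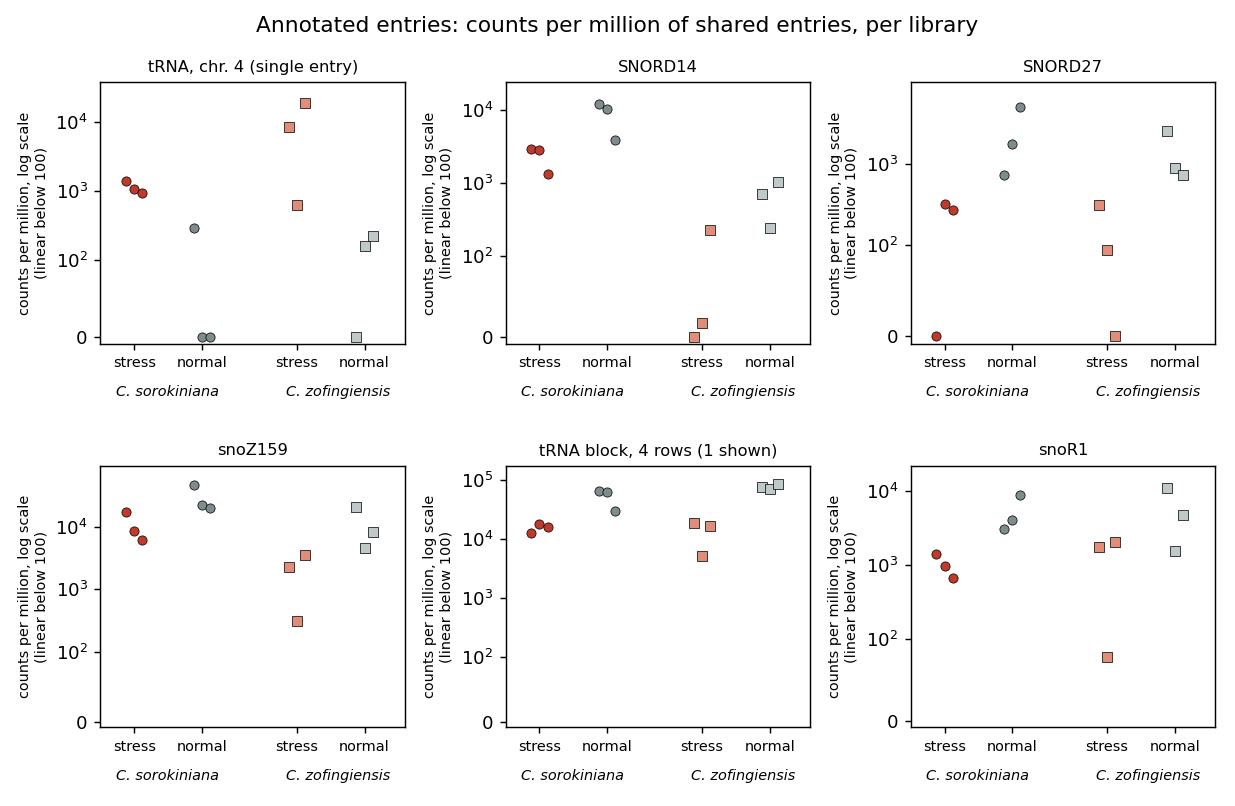
CPM of the shared entries on library totals, without the TMM scaling, per library, for 6 annotated entries, with stress left of normal on a log axis that is linear below 100. Circles are C. sorokiniana and squares are C. zofingiensis. The tRNA of chromosome 4 is higher, and SNORD14, SNORD27, snoZ159 and the tRNA block are lower, in every stress library than in the normal libraries of the same alga, while snoR1 overlaps in C. zofingiensis.

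Entries for microRNAs showed little in common. Of 6 tested precursors 1 rose (16.7%, beside 22.9% over all entries) and 1 fell (16.7%, beside 11.0%), and of 2 tested mature entries 0 passed. The precursor ath-mir-5645e rose by 1.88 on average, with 98, 108 and 63 reads in stress against 7, 10 and 0 in normal libraries of C. sorokiniana but 17, 8 and 4 in stress against 4, 6 and 6 in normal libraries of C. zofingiensis (edgeR, BH-adjusted p = 0.0324). The precursor ath-mir-5652 fell by 1.47 (edgeR, BH-adjusted p = 0.0332), and its commonest read, 10 bases long in both algae, lies whole within tags of family 1. Named microRNA lists were nearly untested: the phosphate list (miR399, miR827, miR2111) had 1 tested entry of 3 shared, the development list (miR156, miR171, miR396, miR319) 1 of 3, miR169 1 of 1, the auxin list (miR160, miR167, miR393) 0 of 2 and the MYB list (miR828, miR858) 0 of 1, and 0 of these were called. The copper list (miR397, miR398, miR408, miR857), miR395 and miR168 had 0 shared entries.

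Among 5S rRNA entries, which belong to the large ribosomal subunit, 3 of 5 tested rose (beside 22.9% over all entries) and 0 fell (beside 11.0%). The 3 that rose rested on 2 distinct pairs of commonest reads. The row at chromosome 3, 13682368 to 13682486, had 25, 39 and 23 reads in stress against 11, 7 and 2 in normal libraries of C. sorokiniana, and 20, 13 and 8 in stress against 3, 4 and 2 in normal libraries of C. zofingiensis, an average log2 fold change of 1.48 (edgeR, BH-adjusted p = 0.0337). As CPM, its values overlapped between the groups in C. zofingiensis, and with TMM-scaled sizes in neither alga. A near copy at chromosome 1, 16432955 to 16433072, was at 1.38 (adjusted p = 0.0443), and the row at chromosome 5, 12024975 to 12025093, was at 2.25 (adjusted p = 0.0326, edgeR, Benjamini-Hochberg), a call lost with library totals alone (edgeR, BH-adjusted p = 0.137) and in 8 of 12 cases with 1 library left out.

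Shares of RNA classes did not pass. Transfer RNA entries took 87.3% ± 1.63 of annotated counts in stress and 82.6% ± 3.60 in normal libraries of C. sorokiniana, and 90.2% ± 2.08 in stress and 88.4% ± 9.57 in normal libraries of C. zofingiensis (SD, n = 3; exact permutation test within species, two-sided, p = 0.31). For microRNA entries the mean difference was -2.33 percentage points (p = 0.055), for snoRNA -1.21 (p = 0.72) and for rRNA 0.25 (p = 0.17), with adjusted p of 0.138 or more over 5 shares (exact permutation tests). Between the algae, the stress response differed for 16 of 109 entries (14.7%, edgeR's interaction test, Benjamini-Hochberg), and the commonest read was the same in both algae for 0 of these 16.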

How the data were processed

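Small RNA was measured in 12 libraries, 3 for each alga and condition. Per the file headers, the authors deposited tag counts, which list the 100 commonest sequences of a library, and counts per annotated RNA from the omiRas tool, in which a read is counted at every RNA it maps to. The deposited signal column divides those counts by mapping loci and served as an alternative. The submitters' processing notes name the Arabidopsis build TAIR9 and DESeq. For aligner and trimming, nothing is stated in the labels. Identical count rows were entered once. Library size was the sum of shared entries or of listed tags, and intervals were not computed, since reads without molecular identifiers are not independent. Stress and normal were compared with edgeR 4.0.16 (R 4.3.3; TMM scaling, low-count filter, quasi-likelihood test, species as covariate, Benjamini-Hochberg threshold 0.05), after tests on simulated data. The simulated data had the same fixed spread for all features and libraries. Those tests therefore do not cover libraries as uneven as these. Shares were compared by exact permutation within species. Alternatives were library totals, DESeq2 1.42.0, filters, joins, a replicate block and leaving out each library. Named features were those called with groups apart in both algae (up to 10 entries or 8 tags per direction), the 10 entries or 8 tags with the highest mean share, and up to 4 with the smallest interaction p. The family 2 tag of 17 bases, 5S rRNA entries, snoR1, ath-mir-5645e, ath-mir-5652 and the tRNA at 7016516 were named after their values were seen. The members and lists were chosen with earlier results of these data known. Fold bounds for unlisted tags use the smallest listed share of the library, and those of entries a floor of 3 counts.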

Additional observations from a re-analysis of the deposited data

Results flagged for a closer look

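The stress response differed between the algae, by edgeR's interaction test, for 9 features chosen by the naming rule, and also for the tRNA at chromosome 1, 7016516 to 7016588, and for family 5, 17 bases. The values are the log2 fold change in C. zofingiensis minus that in C. sorokiniana. Among annotated entries the difference was 6.54 for the tRNA at chromosome 1, 25932077 to 25932149, -8.06 for the tRNA at chromosome 3, 1707738 to 1707809, 4.70 for U4 at chromosome 5, 9832930 to 9833080, and -7.55 for the 5S rRNA at chromosome 5, 12024975 to 12025093. The tRNA of chromosome 1 had 29, 16 and 28 reads in stress against 47, 14 and 3 in normal libraries of C. sorokiniana, and 295, 186 and 189 in stress against 0, 4 and 8 in normal libraries of C. zofingiensis. The 5S rRNA had 23, 40 and 25 reads in stress against 0, 0 and 0 in normal libraries of C. sorokiniana, at least 2.65-fold higher, and 16, 8 and 12 in stress against 9, 9 and 3 in normal libraries of C. zofingiensis. Where a group is at 0 the size of the fitted difference depends on the prior count and is no bound.

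Among tags the difference was 1.42 for family 3, 19 bases, 0.69 for family 1, 17 bases ending GGTA, and 0.88 for family 1, 21 bases. The difference was -11.8 for family 2, 21 bases, and -11.2 for family 2, 22 bases, both unlisted in all 3 stress libraries of C. zofingiensis. The mean normal share of the 22-base tag there was 0.683-fold the smallest listed share under stress, so being unlisted shows no fall. With unlisted tags at the smallest listed count the difference for that tag was 0.79 (interaction term in edgeR, BH-adjusted p = 0.0454). For family 1, 21 bases, the difference between the algae had an adjusted p of 0.903 with DESeq2 and of 0.789 with shared tags alone as library size. Without stress replicate 1 or normal replicate 3 of C. zofingiensis its adjusted p was 0.696 or 0.762 (interaction term in edgeR, Benjamini-Hochberg).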

How the results depend on the processing

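Counts of calls moved with the scaling and with single libraries, while the nested 16-to-18-base share and mean length of family 1 and the shares of families 2 and 5 kept direction and threshold under all 13 alternatives run for them. Against 37 annotated entries called on average, 10 were called with library totals alone (9 of them among the 37, and 31 at an unadjusted p under 0.05) and 21 with near-identical counts joined (19 among the 37). Leaving out 1 library gave 12 to 43, with 14, 18 and 22 without stress replicate 1 of C. sorokiniana, stress replicate 1 and stress replicate 3 of C. zofingiensis, and 24, 14 and 12 without normal replicates 1, 2 and 3 of C. zofingiensis. Entries called in each alga numbered 0 with totals (edgeR), 10 with DESeq2, 15 with counts divided by loci, 1 with near-identical counts joined and 0 to 9 with 1 library left out. Entries that differed between the algae numbered 7 with totals, 25 with DESeq2, 32 without a filter, 66 with identical counts not joined, 5 with counts divided by loci, 10 with near-identical counts joined and 10 to 26 with 1 library left out.

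For tags, 17 were called on average with unlisted tags at the smallest listed count, and 8 to 14 with 1 library left out. In each alga 3 were called with DESeq2, 2 over tags listed in all 12 libraries and 5 to 10 with 1 library left out. Between the algae 4 differed with unlisted tags at the smallest listed count, 12 over tags listed everywhere and 3 to 11 with 1 library left out. The median shift was -0.055 for entries with totals, and 0.243 for entries and 0.359 for tags with DESeq2, which called 35 higher and 18 lower entries and 5 higher and 7 lower tags. The cause of these changes was not tested.

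With counts divided by loci the mean differences were 10.2 percentage points for tRNA, -3.85 for miRNA and -6.66 for snoRNA (exact permutation, p = 0.025, 0.03 and 0.025), and with identical counts once -4.49 for miRNA (p = 0.035, exact permutation). With 1 library left out they were 0.587 to 5.14 for tRNA, -3.03 to -1.41 for miRNA, -2.63 to 0.976 for snoRNA, 0.194 to 0.338 for rRNA and -10.1 to -7.76 for shared tags.

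Reversed values were the U4 difference between the algae, -2.14 without normal replicate 1 of C. sorokiniana and up to 5.47 with other libraries left out, and the average of family 1, 21 bases, 0.363 with totals, 0.419 with shared tags as library size, and 0.414 and 0.417 without stress replicate 1 or normal replicate 3 of C. zofingiensis, the lowest with 1 library left out being -0.112. Differences between the algae also reversed for family 2, 21 and 22 bases, to 0.182 and 0.79 with unlisted tags at the smallest listed count, and for family 1, 21 bases, to -0.373 over tags listed everywhere.

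The labels give same-numbered libraries nothing but a number. Their correlations were 0.0781, -0.0633 and 0.177 in C. sorokiniana and 0.615, 0.472 and 0.196 in C. zofingiensis over entries, and 0.159, 0.323 and 0.499 in C. sorokiniana and 0.445, -0.0469 and 0.352 in C. zofingiensis over tags, so all 3 pairs exceeded 0.1 in 1 alga per table and not in both. With a replicate block 26 entries and 8 tags were called on average, 2 and 6 in each alga, and 19 and 5 differed between the algae. The 18-base tag of family 5 had an adjusted p of 0.109 with the block (edgeR, Benjamini-Hochberg). Permuted within the replicate block, the share of shared tags differed by -8.7 percentage points (exact p = 0.0625), as did family 1 by p = 0.0625 (exact), where 0.0312 is the smallest possible. Alternatives added after the data were seen were TMM-scaled overlaps, the joins of near-identical counts and shared tags as library size. Low counts limit the entries, and listing of 100 tags limits rare tags.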
